A study of Danio rerio with 39 samples.

Results

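The genes of Nodal signalling were followed in zebrafish embryos exposed to gamma radiation, from the ligands to the inhibitors that the pathway switches on. The set was given as 8 genes chosen by name, which were ndr1, ndr2, tdgf1, acvr1ba, foxh1, mixl1, lft1 and lft2. Of these, 7 were found by their own symbol among the 32057 genes counted. The receptor acvr1ba was not found by that symbol. The gene names used here list 2 zebrafish genes as ACVR1B, ENSDARG00000018968 and ENSDARG00000052142, and which of them is acvr1ba could not be told, so both are described and 9 genes were followed in all. Each was read in every one of 39 RNA-seq libraries, and each exposed group was compared with the controls of its own irradiation batch.

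Nodal ligands are secreted signals of the TGF-beta family that instruct cells at the margin of the fish blastula to become mesoderm and endoderm. They act through activin receptors together with a membrane-bound EGF-CFC cofactor, and the signal reaches the nucleus as phosphorylated Smad2, which binds DNA with partners such as Foxh1. Among the genes switched on are mix-type homeobox genes and the Lefty inhibitors, secreted proteins that block the ligands and so close a negative feedback loop.

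The libraries were made from pools of whole AB-strain embryos at the shield stage, the start of gastrulation. Exposed embryos were kept under continuous external gamma irradiation from 137Cs and control embryos were not exposed, with no other treatment or genetic change in any group. The 4 batches were I14 at 0.005 mGy/h (3 exposed and 4 control libraries), I13 at 0.05 mGy/h (4 and 4), I32 at 0.5 mGy/h (6 and 6) and I30 at 5 mGy/h (6 and 6). Since each dose rate had its own batch, a difference between dose rates and a difference between batches cannot be told apart. Whole embryos were sequenced, so fewer cells that express a gene and less RNA of it per cell cannot be told apart either.

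Depth ranged from 9845688 to 57169053 counted read pairs per library, with a median of 25507778. In the batch at 5 mGy/h the controls were shallower (9845688 to 25507778) than the exposed libraries (20896629 to 45879001), and the 3 calls reported below for that dose rate were kept when all its libraries were thinned to the same total. All 6 shield-stage markers were detected, with gsc at 0 in 1 library, while the later blood marker hbae1.1 was at 0 in 38 and the neuronal marker neurod1 in 37 of the 39 libraries. Of the other later-cell markers found, elavl3 was at 0 in 5 libraries, ins in 2 and myhz2 in 0. Their medians were 0.197, 0.345 and 1.07 CPM. The study left 8 of these libraries out of its own comparison after clustering them. They were control 3 and 4 at 0.05 mGy/h, exposed 1 and 3 at 0.5 mGy/h, and control 1 and 2 with exposed 2 and 6 at 5 mGy/h. All 39 are used below, and calls that change with the 31 others alone are given with both values.

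At 5 mGy/h the inhibitors and the target gene mixl1 moved in opposite directions. Transcripts of lft1 and lft2 were 1.35-fold and 1.45-fold higher in exposed embryos and those of mixl1 were 1.61-fold lower, while neither ligand passed the test. With edgeR's quasi-likelihood test and Benjamini-Hochberg adjustment over all genes tested, a gene was called with an adjusted p under 0.05, and 3 of the 9 genes were called, 2 higher and 1 lower. In the same comparison 9.1% of all 15015 genes tested were called, 4.57% higher and 4.53% lower. The median log2 fold change of the 9 genes was −0.08 and that of all genes tested was −0.05. No call was made among the 9 genes at the 3 lower dose rates.

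**Figure D1:**
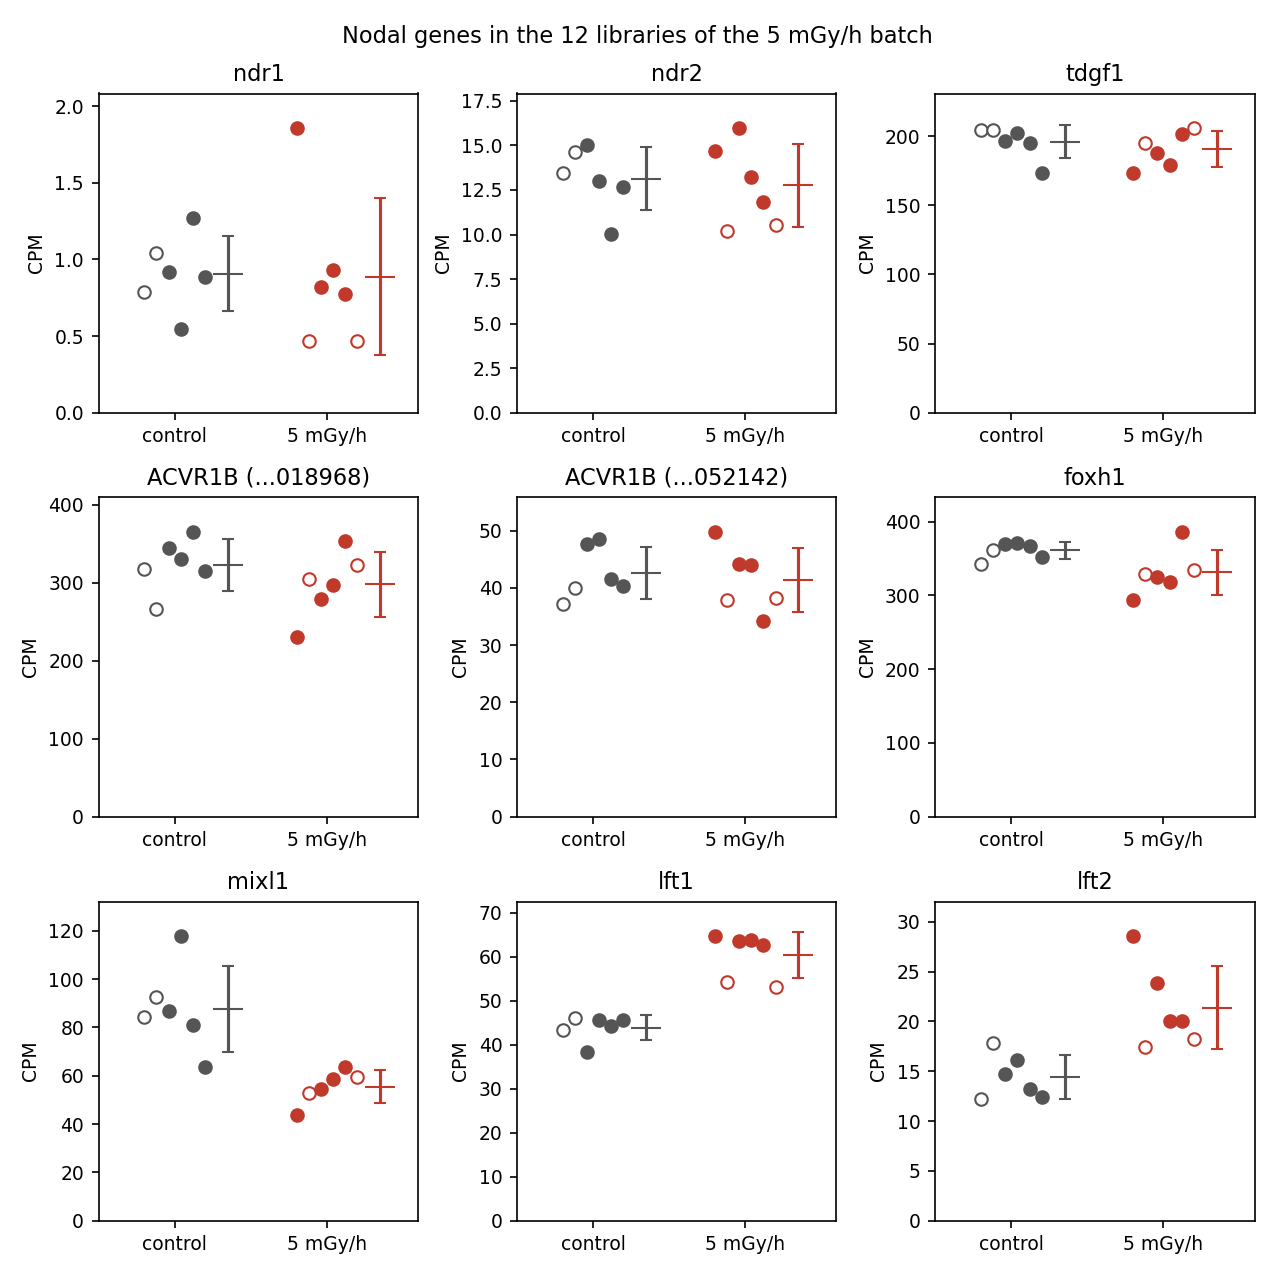
Normalised read counts (CPM, linear axis from 0) of each of the 9 genes in the 6 control and 6 exposed libraries at 5 mGy/h. Filled points are libraries the study kept, open points those it left out, and bars are the mean ± SD. The lft1 points of exposed embryos all lie above those of controls, and the mixl1 points of exposed embryos lie below the lowest control or level with it.

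The ligand gene ndr1 (ENSDARG00000057096), known as squint, was the least counted of the 9, with 6 to 89 read pairs per library. Its level, in CPM (read pairs scaled to a fixed total with the normalised library size), ran in controls at 5 mGy/h from 0.546 to 1.27 with a median of 0.903, and in exposed embryos from 0.467 through a median of 0.795 to 1.86. The groups overlapped over nearly their whole range, and the highest value was exposed library 1. The log2 fold change was −0.13 with a standard error of 0.34 and an adjusted p of 0.841 by edgeR. In the next lower batch, at 0.5 mGy/h, controls ran from 0.631 to 1.57 (median 0.954) and exposed libraries from 0.188 to 1.997 (median 0.574), so that exposed embryos held both the lowest and the highest value. The log2 difference there was −0.61 ± 0.42 (SE, adjusted p = 0.377 by edgeR). The 95% interval of the difference at 5 mGy/h reached from −0.79 to 0.53.

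Below that, ndr1 was not called either. The controls at 0.05 mGy/h had 0.825, 1.16, 2.26 and 1.17 CPM and the exposed libraries 1.46, 1.57, 1.57 and 1.90. Only control 3, one of the libraries the study left out, was above every exposed library. Without the 2 controls left out by the study the log2 difference was 0.68 ± 0.30 (adjusted p = 0.559 by edgeR). The controls at 0.005 mGy/h had 1.79, 2.69, 2.22 and 1.38 CPM and the exposed libraries 1.29, 1.64 and 1.23. The log2 differences were 0.26 ± 0.30 and −0.56 ± 0.30 (SE), with adjusted p of 0.9997 and 0.552 by edgeR.

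The second ligand gene, ndr2 (ENSDARG00000101279), known as cyclops, had a clearer signal and no called difference. At 5 mGy/h controls ran from 10.01 through a median of 13.2 to 14.999 CPM, and exposed libraries from 10.2 through 12.5 to 16.0. Both groups covered the same range, and the log2 difference was −0.08 ± 0.13 (SE, 95% interval −0.33 to 0.18, adjusted p = 0.737 by edgeR). The 0.5 mGy/h batch had 9.04 to 15.002 CPM in controls (median 12.7) and 8.84 to 15.6 CPM in exposed libraries (median 13.5), and its log2 difference was 0.05 ± 0.15 (SE, adjusted p = 0.862). The difference was −0.02 ± 0.13 at 0.05 mGy/h, from control values of 16.2, 17.1, 19.9 and 19.4 and exposed values of 18.9, 18.3, 19.7 and 14.8 CPM. It was 0.13 ± 0.15 at 0.005 mGy/h, where exposed library 3 stood highest at 46.3 CPM, beside exposed values of 35.4 and 29.0 and controls between 30.6 and 34.4.

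The cofactor tdgf1 (ENSDARG00000035095), known as one-eyed pinhead, is the EGF-CFC protein that zebrafish cells need to respond to Nodal, and its RNA is also laid down in the egg. Its level was 196 ± 11.7 CPM in controls and 191 ± 12.9 CPM in exposed embryos at 5 mGy/h (SD, n = 6 each). The 6 exposed libraries ran from 173 to 206 CPM and the controls from 173 to 205 CPM. The log2 difference was −0.07 ± 0.07 (SE, adjusted p = 0.553 by edgeR). Its level was 211 ± 19.5 CPM in controls and 212 ± 11.4 CPM in exposed embryos at 0.5 mGy/h, a log2 difference of 0.01 ± 0.08. Both groups were higher at 0.05 mGy/h, with 306 ± 34.3 and 321 ± 30.8 CPM (SD, n = 4 each). In the 0.005 mGy/h batch controls had 211, 180, 192 and 183 CPM and exposed libraries 144, 160 and 199 CPM, a log2 difference of −0.21 ± 0.14 with an adjusted p of 0.641.

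Of the 2 genes listed as ACVR1B, a type I receptor that passes the activin and Nodal signal to Smad2, neither was called at any dose rate. ENSDARG00000018968 had 323 ± 33.6 CPM in controls and 298 ± 41.5 CPM in exposed embryos at 5 mGy/h, with overlapping ranges of 266 to 366 and 231 to 353 CPM and a log2 difference of −0.15 ± 0.10 (SE, adjusted p = 0.344 by edgeR). Its lowest exposed value, 231 CPM, was in exposed library 1. The log2 difference was 0.04 ± 0.09 at 0.5 mGy/h. In the 0.05 mGy/h batch exposed library 1 stood alone at 326 CPM, beside exposed values of 420, 423 and 427 and controls of 421, 404, 443 and 397 CPM.

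The same receptor gene had the lowest unadjusted p of the 9 genes at 0.005 mGy/h (0.0165). Controls had 273, 374, 390 and 379 CPM and exposed libraries 272, 283 and 270 CPM, so that control 1 lay with the exposed libraries and the other controls lay above them. The log2 difference was −0.38 ± 0.13 (SE) and the adjusted p was 0.359 by edgeR. Without control 1 it was called, with an adjusted p of 0.0423. The share of all genes called without control 1 is not given, so that call is not shown to be particular to this gene. Over all counted genes control 1 also stood apart from the other controls. Its chi-square divided by degrees of freedom was 50.6 to 61.9 against them, and theirs among themselves was 7.47 to 9.90. In this comparison 0% of the 13935 genes tested were called with all libraries, although 1461 had an unadjusted p under 0.05, and DESeq2 called 141.

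The other gene listed as ACVR1B, ENSDARG00000052142, was at 42.5 ± 4.52 CPM in controls and 41.4 ± 5.64 CPM in exposed embryos at 5 mGy/h, a log2 difference of −0.07 ± 0.10. At the dose rate of 0.5 mGy/h controls ran from 51.7 to 83.1 CPM with a median of 60.1, and the exposed mean was 55.3 ± 4.30 CPM. The log2 difference was −0.22 ± 0.11 (SE, adjusted p = 0.208 by edgeR). The differences were 0.04 ± 0.18 at 0.05 mGy/h and −0.16 ± 0.30 at 0.005 mGy/h, with the widest spread of this gene among the exposed libraries at 0.005 mGy/h (43.7 ± 20.04 CPM, SD, n = 3).

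The transcription factor foxh1 (ENSDARG00000055630), which carries activated Smad2 to Nodal target genes and is supplied by the mother as well as the embryo, was not called at any dose rate. At 5 mGy/h controls ran from 343 through a median of 365 to 371 CPM, and exposed libraries had 294, 330, 325, 319, 386 and 334 CPM. Of the 6 exposed libraries 5 lay below every control, and exposed library 5 lay above every control. The log2 difference was −0.15 ± 0.07 (SE) with an adjusted p of 0.177 by edgeR. The means in controls and exposed embryos were 326 ± 33.3 and 314 ± 32.6 CPM at 0.5 mGy/h, 449 ± 30.4 and 455 ± 57.4 CPM at 0.05 mGy/h, and 472 ± 33.8 and 416 ± 18.2 CPM at 0.005 mGy/h. The log2 differences at these dose rates were −0.05 ± 0.09, 0.02 ± 0.12 and −0.20 ± 0.11 (SE).

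The target gene mixl1 (ENSDARG00000069252), known as bonnie and clyde, encodes a mix-type homeobox factor that acts downstream of Nodal in the making of endoderm. At 5 mGy/h controls had 84.3, 92.8, 86.7, 118, 80.9 and 63.6 CPM, and exposed libraries had 43.6, 53.0, 54.4, 58.4, 63.6 and 59.4 CPM. All 6 exposed libraries were below the control median and 5 of 6 were below every control, with control 6 and exposed library 5 level with each other. The mean fell from 87.7 ± 17.8 to 55.4 ± 6.91 CPM, and the log2 fold change was −0.69 ± 0.12 (SE, adjusted p = 0.00589 by edgeR). It was the single gene of the 9 to pass the threshold that the study set for a differentially expressed gene (DEG, at least 1.5-fold with an adjusted p below 0.01), which 0.533% of all genes passed here. The call held when each of the 12 libraries was left out in turn, but the DEG threshold was met in 4 of those 12 fits, with adjusted p from 0.00212 to 0.0202.

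The level of mixl1 at 0.5 mGy/h depended on which exposed libraries were read. Controls had 85.3, 85.4, 78.5, 81.5, 105 and 70.3 CPM and exposed libraries 82.2, 80.3, 72.9, 59.8, 47.6 and 48.0 CPM. Exposed libraries 4, 5 and 6 lay below every control, and exposed libraries 1, 2 and 3 lay within the range of the controls. With all libraries the log2 difference was −0.37 ± 0.14 (SE, unadjusted p = 0.0149, adjusted p = 0.102 by edgeR). Without exposed 1 and 3, which the study left out, it was −0.52 with an adjusted p of 0.0288, in a fit that called 11.6% of all genes. Here 0 of the 9 genes were called by edgeR or by DESeq2 with all libraries, against 7.51% of all 14906 genes called by edgeR (5.79% higher and 1.72% lower). Of the 9, mixl1 was the one gene with an unadjusted p under 0.05 by edgeR, beside 3788 of all 14906 genes.

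In the 0.05 mGy/h batch mixl1 had 88.8, 97.9, 82.9 and 84.9 CPM in controls and 81.7, 100, 90.7 and 96.6 CPM in exposed embryos. The values were mixed and the log2 difference was 0.06 ± 0.11 (SE, 95% interval −0.16 to 0.27). The 0.005 mGy/h controls had 74.3, 95.8, 110 and 107 CPM and exposed libraries 69.6, 77.8 and 76.2 CPM. The exposed libraries were below the other controls and around control 1, the library in which ACVR1B ENSDARG00000018968 was also low, and the log2 difference was −0.39 ± 0.15 (SE, adjusted p = 0.403 by edgeR). These 2 genes were those of the 9 at 0.005 mGy/h with an unadjusted p under 0.05 by edgeR, beside 1461 of all 13935 genes tested. DESeq2 called 0 of the 9. At 0.05 mGy/h none of the 9 had one, DESeq2 called 0, and 0.00632% of all 15814 genes tested were called.

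The inhibitor gene lft1 (ENSDARG00000019920), a Lefty gene expressed at the margin under Nodal control, rose at 5 mGy/h with no overlap between the groups. Controls had 43.4, 46.1, 38.4, 45.5, 44.2 and 45.6 CPM, and exposed libraries had 64.8, 54.3, 63.5, 63.8, 62.6 and 53.2 CPM. The mean was 43.9 ± 2.87 CPM in controls and 60.4 ± 5.18 CPM in exposed embryos, and the log2 fold change was 0.43 ± 0.08 (SE, adjusted p = 0.00889 by edgeR). The lowest exposed values were those of libraries 2 and 6, which the study left out. The gene was called in each of the 12 fits with 1 library left out. Of all genes tested at this dose rate, 3.33% had no overlap between the groups in CPM.

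At the lower dose rates lft1 was not called. In the 0.5 mGy/h batch controls ran from 33.5 through a median of 37.5 to 46.3 CPM and exposed libraries had 38.5, 40.7, 34.9, 41.4, 46.6 and 48.5 CPM. Exposed libraries 5 and 6, which had the lowest mixl1, had the highest lft1, and the log2 difference was 0.12 ± 0.10 (SE, adjusted p = 0.484). The 0.05 mGy/h controls had 50.1, 49.9, 62.8 and 56.8 CPM and exposed libraries 47.4, 63.6, 53.1 and 47.1 CPM, a log2 difference of −0.06 ± 0.13. The 0.005 mGy/h controls had 67.1, 76.6, 71.7 and 66.0 CPM and exposed libraries 77.0, 88.1 and 63.8 CPM, a log2 difference of 0.10 ± 0.12.

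The second inhibitor gene, lft2 (ENSDARG00000044059), also rose at 5 mGy/h. Controls had 12.2, 17.9, 14.7, 16.1, 13.2 and 12.4 CPM and exposed libraries 28.6, 17.5, 23.9, 20.1, 20.03 and 18.3 CPM. Of the 6 exposed libraries 5 lay above every control, and exposed library 2 lay just below control 2. The mean was 14.4 ± 2.24 CPM in controls and 21.4 ± 4.17 CPM in exposed embryos, a log2 fold change of 0.54 ± 0.13 (SE, adjusted p = 0.0226 by edgeR). The call was the least firm of the 3. It was held in 7 of 12 fits with 1 library left out and missed without exposed 3 (adjusted p = 0.0631), exposed 4 (0.0501), control 3 (0.0547), control 5 (0.0573) or control 6 (0.0559).

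The level of lft2 at 0.5 mGy/h had a median of 13.9 CPM in controls, from 12.1 to 18.0, and of 14.9 CPM in exposed embryos, from 9.57 to 19.4. The log2 difference was 0.03 ± 0.15 (SE). The 0.05 mGy/h controls had 18.9, 16.8, 24.7 and 22.2 CPM and exposed libraries 19.4, 20.6, 23.3 and 22.9 CPM, where the highest 2 controls were those left out by the study. The 0.005 mGy/h controls had 28.1, 31.1, 30.2 and 28.7 CPM and exposed libraries 34.1, 42.4 and 28.6 CPM. The log2 differences were 0.06 ± 0.14 and 0.22 ± 0.14 (SE), with adjusted p of 0.9997 and 0.613 by edgeR.

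**Figure D2:**
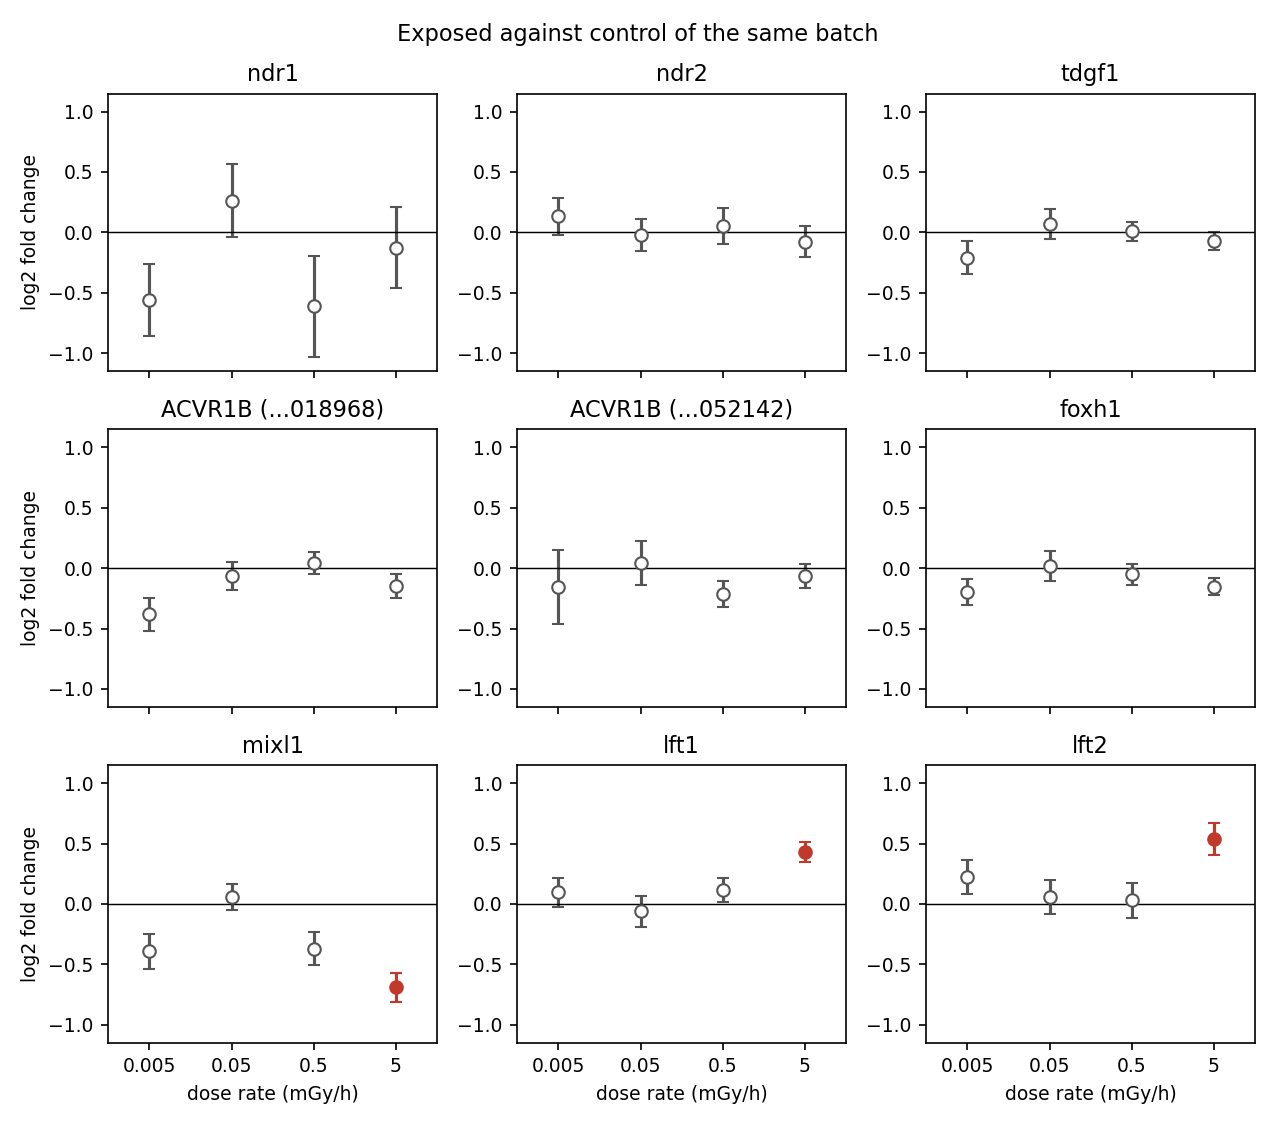
Log2 fold change of exposed against control embryos for the 9 genes at each of the 4 dose rates, with bars of 1 standard error from the edgeR fit. Filled red points have an adjusted p under 0.05, and these are lft1, lft2 and mixl1 at 5 mGy/h.

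With the 31 libraries that the study kept, the changes of lft1, lft2 and mixl1 at 5 mGy/h kept their directions. The log2 fold change was 0.53 for lft1 (adjusted p = 0.00128), 0.69 for lft2 (adjusted p = 0.00253) and −0.68 for mixl1 (adjusted p = 0.00419) by edgeR. The same 3 of 9 genes were called, and lft2 then also passed the DEG threshold, as did 1158 of 14529 genes tested. Of all genes tested, 25.4% were called with these libraries.

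The balance of inhibitors and ligands was read from summed CPM. The sum of lft1 and lft2 had a geometric mean of 58.2 CPM in controls at 5 mGy/h (53.1 to 64.0) and of 81.4 CPM in exposed embryos (71.5 to 93.4), a ratio of 1.40. The sum of ndr1 and ndr2 was 13.98 and 13.5 CPM, a ratio of 0.963 (p = 0.678, two-sided exact permutation test). The ratio of inhibitors to ligands was 4.16 in controls (3.33 to 5.08) and 6.05 in exposed embryos (5.19 to 6.71), which is 1.45-fold higher. In the summed inhibitors and in this ratio no exposed library reached down to the controls. Each gave p = 0.0022, the smallest that a two-sided exact permutation test of 6 against 6 can give, and an adjusted p of 0.013 over the 12 tests of 3 values at 4 dose rates. With the 31 libraries alone each p was 0.0286, the smallest that 4 against 4 can give in the exact test, and the adjusted p of 0.171 no longer passed. At the other dose rates the 3 values differed by ratios between 0.983 and 1.11, with adjusted p of 1. Most of the inhibitor sum was lft1 and most of the ligand sum was ndr2, so these tests largely repeat the results of those genes. Gene length was not taken into account, so only the change of the ratio between groups can be read, not its level.

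**Figure D3:**
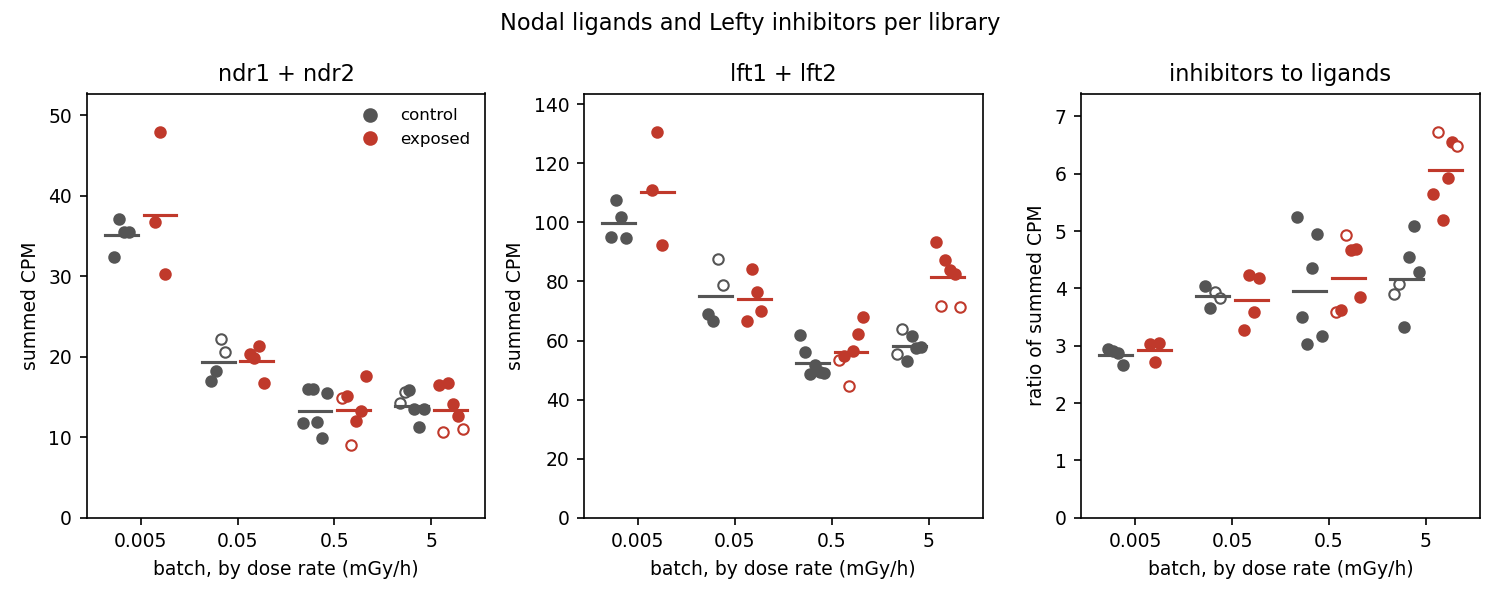
Summed CPM of the ligands ndr1 and ndr2, summed CPM of the inhibitors lft1 and lft2, and the ratio of inhibitors to ligands (linear axes). Every library is shown by dose rate and group, with horizontal lines at the geometric means and open points for libraries the study left out. The exposed libraries at 5 mGy/h lie above all controls in the inhibitor sum and in the ratio, and the ligand sums of both groups cover the same range.

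All batches were then fitted together with 1 exposure term common to the 4 dose rates and a term for batch. In that fit mixl1 was called, with a log2 change of −0.37 ± 0.08 (SE, adjusted p = 0.0231 by edgeR), where 0.666% of all 17255 genes were. The exposed libraries below the control median of their batch were 3 of 3 at 0.005 mGy/h, 1 of 4 at 0.05 mGy/h and 6 of 6 at both 0.5 and 5 mGy/h. The common term was 0.19 for lft1 (adjusted p = 0.109) and 0.24 for lft2 (adjusted p = 0.142). With the 31 libraries that the study kept all 3 genes were called, with adjusted p of 0.0085 for lft1, 0.0054 for lft2 and 0.0026 for mixl1, in a fit that called 12.4% of all genes.

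Whether a change differed between dose rates was tested as an interaction of exposure with batch. None of the 9 genes passed with edgeR or with DESeq2, while 2.21% of all genes did with edgeR. The 3 genes called at 5 mGy/h were those with an unadjusted p under 0.05, which was 0.0070 for lft1, 0.0104 for mixl1 and 0.0369 for lft2, with adjusted p of 0.0954, 0.113 and 0.198. Between 5 and 0.5 mGy/h the change of lft2 differed by 0.54 on the log2 scale (adjusted p = 0.056, and 0.0294 with the 31 libraries), that of lft1 by 0.34 (adjusted p = 0.0775) and that of mixl1 by −0.29 (adjusted p = 0.286). Between 5 and 0.05 mGy/h the change of mixl1 differed by −0.72 (adjusted p = 0.195) and that of lft1 by 0.52 (adjusted p = 0.212). The calls at 5 mGy/h were therefore not shown to be particular to that dose rate.

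Levels in unexposed embryos also differed from batch to batch. Over the 20 control libraries 8 of the 9 genes differed between batches by edgeR's quasi-likelihood test, as did 77.4% of all 16249 genes, and mixl1 was the one that did not (adjusted p = 0.226). With only the controls that the study kept, ACVR1B ENSDARG00000018968 did not differ either (adjusted p = 0.121 by edgeR), beside 0.252 for mixl1. The controls of the 0.005 mGy/h batch stood highest for ndr2 (33.1 ± 1.75 CPM), then those at 0.05 mGy/h (18.2 ± 1.81), with those at 5 mGy/h (13.1 ± 1.78) and 0.5 mGy/h (12.5 ± 2.39) within each other's spread. The order was the same for lft1, at 70.3 ± 4.83, 54.9 ± 6.19, 43.9 ± 2.87 and 38.4 ± 4.27 CPM. It was the same for lft2, at 29.5 ± 1.38, 20.6 ± 3.47, 14.4 ± 2.24 and 14.4 ± 2.26 CPM, where the last 2 did not differ beyond their spread. In contrast, the controls at 0.05 mGy/h stood highest for tdgf1 (306 ± 34.3 CPM), and the other 3 control groups lay between 192 and 211 CPM. The means of mixl1 lay between 84.3 and 96.7 CPM in the 4 control groups, within the spread of their libraries. The exposed level of lft1 at 5 mGy/h, 60.4 CPM, was thus above its own controls but below the controls at 0.005 mGy/h.

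Variation among libraries of the same group was read from correlations. These were taken over the 39 libraries after removing the mean of each of the 8 groups, for the 21 pairs among the 7 genes with a symbol of their own, with a permutation test within groups and Benjamini-Hochberg adjustment over the 21 pairs. For Pearson's r 6 pairs passed, and all 6 were positive. The share of pairs among all genes that would pass was not computed, so this count is not shown to be particular to these genes. Of the 4 pairs of a ligand and an inhibitor 3 passed, with r = 0.68 for ndr2 and lft2 (Spearman's rho 0.63, permutation adjusted p = 0.0015 and 0.0035) and r = 0.68 for ndr1 and lft2 (rho 0.51, adjusted p = 0.0015 and 0.0141). The pair ndr1 and lft1 gave r = 0.48 (adjusted p = 0.0131), while its rho of 0.41 did not pass (adjusted p = 0.0606). The fourth, ndr2 and lft1, did not pass (r = 0.41, rho 0.35, permutation adjusted p = 0.0872 and 0.173). The ligands correlated with each other (r = 0.58, rho 0.62, permutation adjusted p = 0.0035 for both), as did the inhibitors (r = 0.61, rho 0.59, adjusted p = 0.0015 and 0.0035). For foxh1 and its pathway's target mixl1 r was 0.57 (rho 0.56, permutation adjusted p = 0.0015 and 0.0043).

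Within single batches, with all libraries, these 6 correlations were positive, from 0.30 for ndr1 and ndr2 at 0.05 mGy/h to 0.98 for ndr2 and lft2 at 0.005 mGy/h. Without the 2 libraries farthest from the median on the x axis r was 0.32 for ndr1 and lft1, 0.45 for ndr1 and ndr2, 0.52 for ndr1 and lft2, 0.56 for foxh1 and mixl1, 0.60 for ndr2 and lft2 and 0.62 for lft1 and lft2. With the 31 libraries that the study kept, 1 of the 6 still passed, which was foxh1 and mixl1 (r = 0.53, permutation adjusted p = 0.032). The others were then r = 0.51 for ndr2 and lft2 and 0.45 for ndr1 and lft2 (adjusted p = 0.166 each), 0.39 for lft1 and lft2 (0.210), 0.34 for ndr1 and ndr2 (0.214) and 0.18 for ndr1 and lft1 (0.631). Within batches 4 of the 6 pairs then had negative values, at 0.05 mGy/h −0.45 for ndr1 and ndr2, −0.35 for ndr2 and lft2, −0.19 for ndr1 and lft1 and −0.09 for lft1 and lft2, and at 5 mGy/h −0.12 for ndr1 and ndr2, −0.04 for ndr1 and lft1 and −0.01 for lft1 and lft2. No pair of a ligand and an inhibitor passed with these libraries, and for foxh1 and mixl1 rho no longer passed (0.46, adjusted p = 0.190). With all 39 libraries the lowest r of the 21 pairs was −0.35, between ndr1 and mixl1. All genes of a library share its depth and its pool of embryos.

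**Figure D4:**
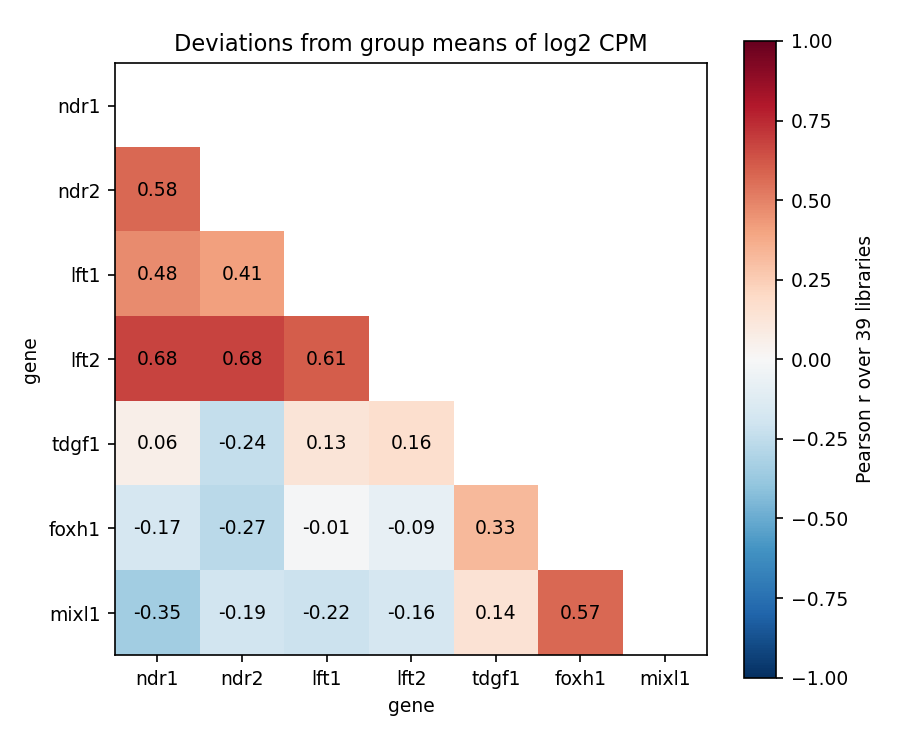
Pearson's r between the 7 genes with a symbol of their own, over 39 libraries after removing the means of the 8 groups (colour scale from −1 to 1, with r printed in each cell). The ligands and Lefty genes form a block of positive values up to 0.68, and foxh1 with mixl1 stands at 0.57.

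For each of 5 genes the 3 genes with the most similar levels were taken from 12910 genes with a symbol, by Pearson's r over the 39 libraries after removing batch means. Since exposed and control libraries were read together, a shared difference with exposure enters this r. The fold changes at 5 mGy/h given for the genes so chosen are therefore a description and not separate evidence of a change. The closest to mixl1 were PIP4K2C (r = 0.86), sebox (0.86) and CLINT1 ENSDARG00000089914 (0.81). The gene sebox encodes another homeobox protein and was not among the target genes found by symbol and read below. Whether it is a listed target under another symbol, such as og9x, which was not found, was not checked. Its log2 fold change at 5 mGy/h was −1.07 (adjusted p = 0.00214 by edgeR) beside −0.69 for mixl1. The log2 fold changes of PIP4K2C and CLINT1 were −0.29 (adjusted p = 0.0368) and −0.74 (0.0113).

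The closest to lft1 were the Wnt receptor gene FZD2 (r = 0.88), the spindle gene TPX2 (0.88) and the homeobox gene six4b (0.87). All rose at 5 mGy/h by edgeR, with log2 fold changes of 0.59, 0.39 and 0.62 (adjusted p = 0.00711, 0.0191 and 0.0126). The closest to lft2 were VIRMA, fetub and the tubulin gene tuba5, each at r = 0.91, with log2 fold changes of 0.43, 0.63 and 0.56 (adjusted p = 0.0167, 0.00632 and 0.00932). The r of the ligands cannot be set against these values. The called changes of mixl1, lft1 and lft2 at 5 mGy/h enter their r, and ndr1 had few read pairs. The highest r was 0.62 for ndr1, shared by HOMER1, BCKDHA and ephx5, and 0.73 for ndr2, with MCM7 ahead of SP1 (0.71) and mrpl20 (0.68). None of these 6 genes was called at 5 mGy/h.

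The other genes of the pathway were read from 4 lists, of ligands and inhibitors, receptors, transducers and target genes. Of 41 genes 34 were found and 31 were tested in each comparison. Genes were looked up by symbol, so a gene listed under another symbol could be missed. The target gene symbol og9x was among those not found, and the counts below hold for the genes tested. In the comparison at 5 mGy/h 1 of the 31 was higher and 2 were lower, all among the 18 target genes tested, beside 4.57% and 4.53% of all genes. With the 31 libraries that the study kept it was 6 higher and 2 lower, the 6 including 3 of the 8 transducers (smad7, drap1 and trim33), where 11.8% of all genes were called higher and 13.6% lower. With all libraries the median log2 fold change was −0.01 for the target genes, 0.12 for the 8 transducers and −0.02 for the 4 receptors, beside −0.05 for all genes tested. For 0.5 mGy/h 2 of the 31 were higher and 1 was lower, beside 5.79% and 1.72% of all genes, so that the share called was near that of all genes. None was called by edgeR at the other dose rates. An unadjusted p under 0.05 by edgeR was seen for 5 of these genes at 0.005 mGy/h, beside 1461 of all 13935 genes tested. DESeq2 called 1 of them there, beside 141 of all 23143 genes it tested. At 0.05 mGy/h such a p was seen for 0 of them, beside 217 of all 15814 genes, and DESeq2 called 0.

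The 3 genes of the target list called at 5 mGy/h belong to the dorsal organizer or the margin. The BMP antagonist gene chrd was at 295 ± 29.8 CPM in controls and 442 ± 63.8 CPM in exposed embryos, a log2 fold change of 0.56 ± 0.10 (SE, adjusted p = 0.00649 by edgeR). The organizer homeobox gene lhx1a went the other way, from 51.7 ± 6.09 to 35.9 ± 3.67 CPM (−0.56 ± 0.10, adjusted p = 0.0073). The growth factor gene fgf3 fell from 16.7 ± 1.30 to 11.98 ± 1.53 CPM (−0.51 ± 0.11, adjusted p = 0.0141). Exposed and control libraries of these 3 genes did not overlap, as in 3.33% of all genes tested, and each was called in all 12 fits with 1 library left out. The number called among the 31 was 6 without exposed 2 or without control 2, and 8 with the 31 libraries that the study kept. The fit of those 31 libraries called 25.4% of all genes, and the share is not given for the fits with 1 library left out.

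The genes called at 0.5 mGy/h were others. The gene gdf3, which encodes the maternal Vg1 ligand that pairs with Nodal proteins, was at 159 ± 24.8 CPM in controls and 123 ± 11.8 CPM in exposed embryos (log2 fold change −0.37 ± 0.10, adjusted p = 0.0276 by edgeR). The axial mesendoderm gene foxa2 was at 30.4 ± 3.22 and 38.8 ± 5.89 CPM (0.35 ± 0.10, adjusted p = 0.0454), and the Wnt antagonist gene frzb at 15.4 ± 1.75 and 20.9 ± 2.19 CPM (0.44 ± 0.11, adjusted p = 0.0207). With 1 of the 12 libraries left out frzb was called in 10 fits, gdf3 in 7 and foxa2 in 3. The number called among the 31 was 0 without exposed 4 or without exposed 5, and 1 without exposed 6, control 2 or control 3.

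**Figure D5:**
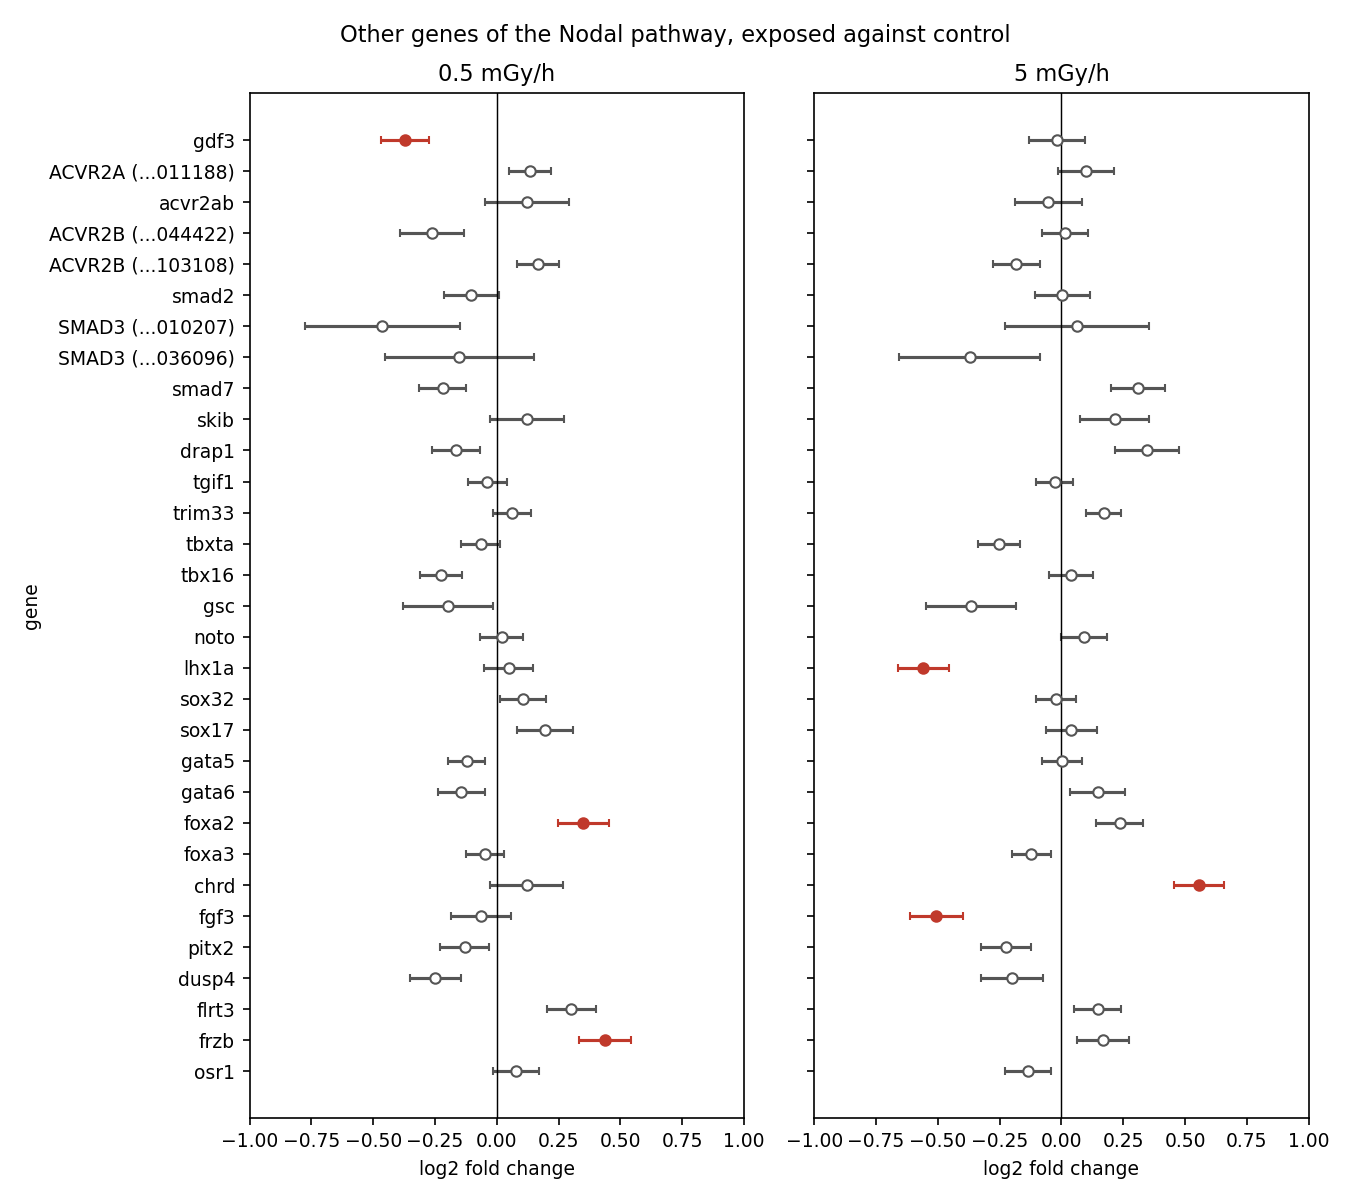
Log2 fold change (± standard error, edgeR) at 0.5 and 5 mGy/h of the other genes of the Nodal pathway tested, by list. Filled red points have an adjusted p under 0.05: gdf3, foxa2 and frzb at 0.5 mGy/h, and chrd, lhx1a and fgf3 at 5 mGy/h.

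Markers of other cells and of embryo age were read beside these results, since they moved in the same comparison. In embryos exposed at 5 mGy/h 6 of 8 markers of the enveloping layer, the outer epithelium of the embryo, were higher (krt17 by 0.56, cyt1 by 0.47 and krt5 by 0.41 on the log2 scale, adjusted p = 0.0089, 0.0215 and 0.0278 by edgeR). Their summed level ran from 3675 to 5204 CPM in controls and from 4772.5 to 7407 CPM in exposed embryos, and none was at 0. Of the yolk syncytial layer, an extraembryonic layer that itself expresses Nodal ligands, 1 of 3 tested markers was higher (apoa1b by 0.66, adjusted p = 0.0078), and the summed level of its 5 markers was 71.1 to 105 CPM in controls and 108 to 176 CPM in exposed embryos, with its marker ttr at 0 in 34 and apoa4b.1 at 0 in 17 of all 39 libraries. The germ cell marker ddx4 was lower by −0.40 on the log2 scale (adjusted p = 0.0142), the one called of 4. In this comparison 4.57% of all genes tested were called higher and 4.53% lower. In the 31 libraries 7 of 8 enveloping layer markers and 2 of 3 yolk syncytial layer markers were higher, beside 11.8% of all genes.

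Of the stage lists, genes that increase during gastrulation were called higher in 3 of 10, among them tbx6 by 0.95 and cdx1a by 0.90 on the log2 scale, and lower in 1, her1 by −0.37. Their median log2 fold change was 0.44, beside −0.05 for all genes tested, and 7 of the 10 were positive. With the 31 libraries that the study kept this median was 0.54, beside −0.07 for all genes. Early zygotic genes (median −0.07) were lower in 2 of 10, vent by −0.82 and mxtx1 by −0.38. Of 8 maternal transcripts (median −0.05) none was called by edgeR (2 had an unadjusted p under 0.05). Of all genes tested here, 4.57% were called higher and 4.53% lower. In the 31 libraries 4 early zygotic genes were higher, among them ved by 0.49, and 2 lower, and 1 maternal transcript was higher (zp3b) and 1 lower (h1m). That fit called 11.8% of all genes higher and 13.6% lower. The summed levels of the stage lists with all libraries overlapped between the groups, at 386 to 464 and 403 to 509 CPM for the first list in controls and exposed embryos, at 1318 to 1678 and 1415 to 1770 CPM for the second, and at 365 to 620 and 365 to 606 CPM for the third. The part of these markers, and of embryo age, in the changes of lft1, lft2 and mixl1 was not tested.

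In the 0.5 mGy/h batch, where mixl1 was called with the 31 libraries, none of the 8 enveloping layer markers was called by edgeR (3 had an unadjusted p under 0.05), and their summed level ran from 5506 to 7336 CPM in controls and from 4614 to 6385 CPM in exposed embryos. Of the yolk syncytial layer 2 of 3 tested markers were higher there, beside 5.79% of all genes tested. The summed level of the list was 92.1 to 119 CPM in controls and 121 to 209 CPM in exposed embryos. Maternal transcripts had a median log2 fold change of −0.28, with 1 of 8 called lower. Early zygotic genes had −0.14, with 0 of 10 called. Genes that increase during gastrulation had 0.08, with 2 of 10 called lower. The median of all genes was −0.01, and 1.72% were called lower by edgeR. With the 31 libraries the 3 medians were −0.33, −0.10 and 0.05, beside −0.03 for all genes. The part of these markers, and of embryo age, in the level of mixl1 was not tested.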

How the data were processed

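RNA of pools of zebrafish embryos was sequenced as stranded, paired-end, poly(A)-selected libraries. Per the labels and the study's methods, the authors mapped reads with STAR to GRCz11, using Ensembl splice junctions, and deposited raw counts of uniquely mapped pairs per gene, without normalisation. The column that counts the strand of the transcript was used, and reads shared by near-identical paralogues are not counted. Between 89.5% and 94.3% of the uniquely mapped pairs fell on genes. Replicates are separate libraries of one group, and pairs of them differed by more than counting noise (over 81 pairs, the chi-square divided by its degrees of freedom was 4.12 to 137). The study's methods say that eggs of all spawns were pooled, and nothing in the labels says that libraries came from separate spawnings. The p-values therefore measure the spread between these libraries and not between spawnings.

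Counts were fitted in R 4.3.3 with edgeR 4.0.16 (TMM, filterByExpr at its default minimum count, 10, and minimum total, 15, two-sided quasi-likelihood test), with the exposed and control libraries of 1 batch in a fit and Benjamini-Hochberg adjustment over all genes tested. The 95% intervals were taken from the standard error by a normal approximation, so with this few libraries they are too narrow. CPM were computed from the deposited counts and TMM-scaled library sizes (prior count 0.5 on the log2 scale). DESeq2 1.42.0, which the study used, was run as an alternative, beside other scaling, filters, strand, depth, a replicate block and the 31 libraries that the study kept. The fits were also run on simulated counts as a check of the code. These had the same spread for every gene, unlike the libraries, and no changes as small as those of lft1 and lft2. Sums and correlations were computed in Python 3.11.15 with scipy 1.17.1, and figures were drawn with matplotlib 3.10.9. Correlations had been planned for 28 pairs, and 21 were run because acvr1ba could not be told from the second ACVR1B gene. Gene names came from the tables given with the files. No genome was used, and the 50 mGy/h exposure of the study was not analysed here.

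The genes and lists were chosen with earlier results of these data known. Named are the 9 genes, other pathway genes called at any dose rate, at most 3 markers per list and the 3 most similar genes of each of 5 members. All 5 markers found for later cells are also named.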

Additional observations from a re-analysis of the deposited data

Results flagged for a closer look

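In 6 of 63 combinations of gene and group, 1 library stood apart from the rest of its group by Dixon's criterion, which chance gives in about 1 in 20 groups. For ndr1 these were exposed 1 at 5 mGy/h (1.86 CPM, the others 0.467 to 0.932) and exposed 6 at 0.5 mGy/h (1.997 CPM, the others 0.188 to 0.735). For ACVR1B ENSDARG00000018968 they were exposed 1 at 0.05 mGy/h (326 CPM, the others 420 to 427) and control 1 of the 0.005 mGy/h batch (273 CPM, the others 374 to 390). In the controls of the 5 mGy/h batch, control 6 stood apart for tdgf1 (173 CPM, the others 195 to 205) and control 3 for lft1 (38.4 CPM, the others 43.4 to 46.1).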

How the results depend on the processing

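At 5 mGy/h lft1, lft2 and mixl1 were called in all 10 other settings, which were the 31 libraries, DESeq2 with all and with the 31 libraries, other scaling, filters and strand, thinned counts, a replicate block and 1 fit of all groups. The DEG threshold left 1 of them, and leaving out 1 library left 2 to 3. At 0.5 mGy/h 0 of the 9 genes were called with all libraries, and 1, mixl1, with the 31 libraries (−0.52, adjusted p = 0.0288), with DESeq2 on them (−0.52, adjusted p = 0.00864) and with a replicate block (−0.39, adjusted p = 0.0448). At 0.005 mGy/h the block called 2, mixl1 (−0.50, adjusted p = 0.0218) and ACVR1B ENSDARG00000018968 (−0.49, adjusted p = 0.0213), and leaving out 1 library 0 to 1. The common exposure term called 3 with the 31 libraries in place of 1. Of the 31 other pathway genes, 1 was called at 0.005 mGy/h under DESeq2 with all or with the 31 libraries, without the filter and with the block, and 0 to 1 with 1 library left out. At 0.5 mGy/h the 3 became 5 with DESeq2 on the 31 libraries, 1 in the fit of all groups, 0 at the DEG threshold and 0 to 4 with 1 library left out. At 5 mGy/h the 3 became 8 with the 31 libraries, 5 with DESeq2, 9 with DESeq2 on the 31, 0 at the DEG threshold and 3 to 6 with 1 library left out. Of all genes tested there, edgeR called 9.1% with all libraries and 25.4% with the 31. DESeq2 with all libraries called 2209 of 25218. For the other settings the share of all genes called is not given, so these counts are not shown to be particular to the pathway. The adjusted p of 0.013 of the inhibitor sum and of the ratio became 0.171 with the 31 libraries. With other scaling 1 further correlation passed, ndr2 with lft1 (r = 0.47, permutation adjusted p = 0.036). No direction of a called value reversed. DESeq2 with the 31 libraries was chosen after seeing the data. The cause of these differences was not tested.

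Not every same-numbered pair of exposed and control libraries varied together (10 of 19 pairs had a correlation over 0.1, from −0.62 to 0.53, 4 of the 6 at 0.5 mGy/h among them, and 8 had their best partner at the same number), so the numbers were not taken as pairs. The counts of ndr1 were lowest, with 6 to 89 pairs per library. With 1 batch per dose rate no order of the dose rates can be read.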
